A study of Mus musculus with 24 samples.

Results

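Adrenal glands of castrated male mice that lack Kcnk3 were set against those of sham-treated females that lack Kcnk3, to ask whether removal of the testes brings the male null gland to the female null state. The comparison holds 6 of the 24 one-colour arrays of the series: 3 labelled male, null and castrated, and 3 labelled female, null and sham. Arrays were chosen by these labels alone, and genes on the autosomes alone were considered, which left 29731 features (18787 with a gene symbol) of 31143. The series crossed genotype, sex and treatment in 8 groups of 3 arrays, all from adrenal glands labelled C57BL/6. The other groups used here were sham null males, sham and castrated wild-type (WT) males, and sham WT females; testosterone-injected females were not compared. Both groups of the main comparison carry the Kcnk3 null genotype, and neither was given testosterone. The labels give no animal age, no interval after castration and no description of the null allele beyond its name. Nothing states that each array is a separate animal, so the p-values measure the spread between arrays.

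Kcnk3 encodes TASK1, a background potassium channel that keeps adrenal cortical cells hyperpolarised. The outermost zone of the cortex, the zona glomerulosa, makes aldosterone with the enzyme encoded by Cyp11b2, and the zona fasciculata beneath it makes corticosterone. In mice the cortex differs by sex: an inner X-zone, marked by Akr1c18 (a 20-alpha-hydroxysteroid dehydrogenase), regresses in males as androgen rises and persists longer in females, and castration allows it to reappear.

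Values are log2 processed signal with the 75th percentile of each array set to 0, so a difference of 1 is a doubling. Each difference is the castrated male mean minus the female mean unless stated otherwise. Tests were limma's moderated tests over all arrays of the series, with Benjamini-Hochberg adjustment over all features, and a feature was called at an adjusted p under 0.05. Signal lay well above background for 57.0% to 64.7% of spots. The cortical genes Star, Cyp11a1, Cyp21a1 and Cyp11b1 lay at or above percentile 98.0 of the features on every array of the main comparison, whereas the liver gene Alb reached at most percentile 45.2. Because whole glands were measured, fewer cells of a type and less RNA per cell cannot be told apart.

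Sex-linked transcripts did not match the labels on every array. Xist, the RNA of the inactive X chromosome of females, read 17.4%, 58.0% and 4.15% of the female null mean on castrated null arrays 1, 2 and 3. On the sham null male arrays it read 19.5%, 18.3% and 6.08%, and on WT male arrays it was at most 1.11%. The mean signal of the Y-linked genes Ddx3y and Eif2s3y was 79.8%, 37.3% and 117% of the WT sham male level on the castrated null arrays, and at most 0.180% on the female null arrays. Castrated null arrays 1 and 2 thus carried transcript of the opposite sex, array 2 the most, as did sham null male arrays 1 and 2, which the sham sex and castration comparisons use, and WT female sham arrays 2 and 3. Xist was also well above background on castrated null array 3 and sham null male array 3, at 4.15% and 6.08%, so array 3 held less of it rather than none. Group names below are those of the labels, and values of single arrays are given so that array 3 can be read alone. Kcnk3 itself, measured by a probe at chr5:30927090-30927149 of mm9, read 13.1%, 11.0% and 9.53% of the WT sham female level on the castrated arrays and 29.9%, 24.0% and 12.1% on the female null arrays. The sources used here do not give the deleted part of the gene, so residual signal does not check the genotype.

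No autosomal feature passed the test between castrated null males and null females (0% of 29731). By limma 777 features had an unadjusted p under 0.05, and the smallest adjusted p was 0.0935. The median absolute difference was 0.16, and 731 features differed by more than 1. The 95% interval of the difference lay within -1 and 1 for 17717 features, or 59.6%, so for these a difference of more than 2-fold in either direction lay outside the interval, and for the other 12014 it did not. In the sham null glands, by contrast, 209 features were called between the sexes, 0.703% of those tested, of which 108 were higher in males (0.363%) and 101 lower (0.34%). Castration of null males was called for 287 features (0.965%), with 119 rises (0.4%) and 168 falls (0.565%). The sham sex comparison uses the same female arrays and the castration comparison the same castrated arrays as the main one, so their values are set side by side and are not independent.

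These counts moved with single arrays. Without castrated null array 2, the array with the most Xist, 10 features were called in the main comparison, among them a rise of Obp2a and falls of Adgrd1, Clic6, Fndc1, Lrrn4, Osr1 and Prr15. Without female null array 3, Clic6 alone was called. With castrated arrays 1 and 2 both left out, array 3 alone stood against the 3 female arrays, and Fndc1 differed by -2.05. Against 209, the sham sex comparison gave 51, 112 and 84 calls without sham male arrays 1, 2 and 3, and 115 and 93 without female arrays 1 and 3. It gave 374 with the replicate number as a block. Against 287, the castration comparison gave 122, 165 and 170 without sham male arrays 1, 2 and 3, and 180 and 159 without castrated arrays 1 and 3. Each replicate number of these 3 null groups lay on 1 slide of its own. Within slides 1, 2 and 3, 5.94%, 5.12% and 10.5% of autosomal features differed by more than 1 between the castrated male and the female array, against 9.21%, 7.60% and 16.5% between the sham male and the female array. The castrated array was the nearer one on every slide.

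Genes that differ by sex in WT glands gave a measure whose sex differences came from other arrays. The tests that chose these genes took their spread from all arrays of the series, the null arrays among them. The choice was therefore not independent of the spread on the null arrays. Of the autosomal genes with a symbol, 302 were higher and 198 lower in WT sham females than in WT sham males, which share no array with the null groups; over all features calls between the WT sexes made up 1.99%, with 1.19% higher and 0.801% lower in females. For the 302 female-high genes, the median over genes relative to the female null mean was -0.39, -0.25 and -0.82 on the sham null male arrays. It was -0.13, 0.06 and -0.12 on the castrated null arrays and -0.03, 0.02 and 0.01 on the female null arrays. For the 198 male-high genes it was 0.81, 0.78 and 0.74 on the sham male arrays, 0.21, -0.04 and -0.08 on the castrated arrays, and 0.14, 0.04 and -0.15 on the female arrays. On both measures every sham male array lay outside the range of the female arrays, and on the male-high measure castrated arrays 2 and 3 lay within that range. On the female-high measure all 3 castrated arrays lay outside it, arrays 1 and 3 below and array 2 above. On castrated array 3 alone, which carried the least Xist, the medians were -0.12 and -0.08. Over all autosomal features the median of the main difference was -0.04.

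The 198 male-high genes held 50 calls between sham null males and females, all higher in males, and 55 falls after castration. They held 0 calls between castrated males and females. Over all autosomal features such calls made up 0.363%, 0.565% and 0%. Of the 198 genes, 81 differed by more than 1 from the female null mean in sham males and 8 in castrated males. Over all 29731 autosomal features 1577 and 731 did so. The 302 female-high genes held 22, 18 and 0 calls in the same order. All of the called genes were lower in sham males (0.34% of all autosomal features) or higher after castration (0.4%). Here 85 differed by more than 1 in sham males and 53 in castrated males. In the main comparison 62 had an unadjusted p under 0.05 by limma, against 16 of the male-high genes and 777 of all autosomal features. The interval of the castrated null male minus female difference lay within -1 and 1 for 138 of the 198 male-high genes. It did so for 169 of the 302 female-high genes. For the rest of both lists a difference of more than 2-fold lay inside the interval. Because the spread used to choose both lists included the null arrays, these counts of calls and intervals are not independent of that choice. Its effect on them was not tested. WT female sham arrays 2 and 3, which helped to choose these lists, carried Y-linked signal at 25.4% and 45.5% of the WT male level. WT female array 3 also had an RNA integrity number of 3, against 7 to 9 on the other arrays of the groups used. It alone of these arrays lay on slide 4.

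**Figure D1:**
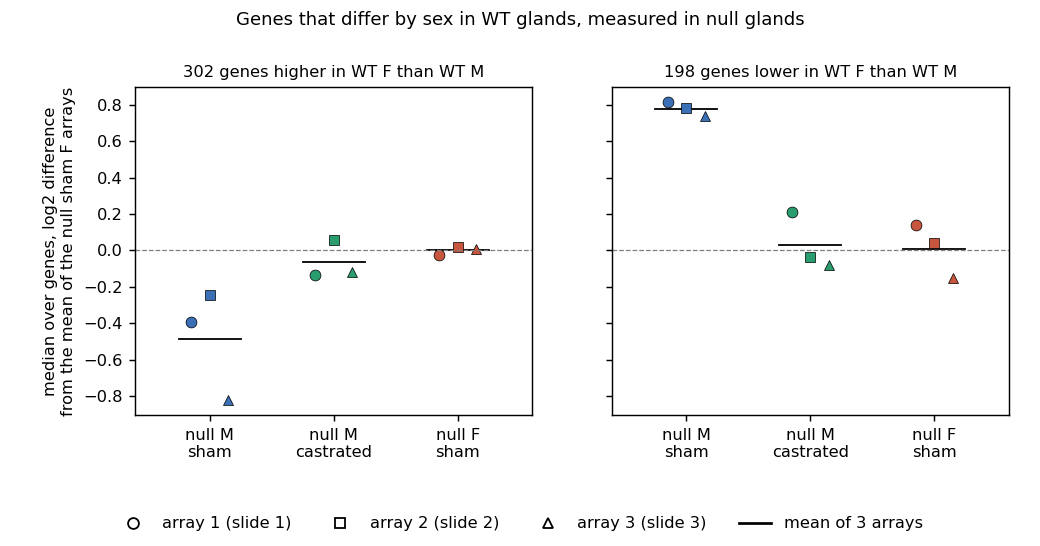
Median over 302 genes higher (left) and 198 genes lower (right) in WT females than in WT males, as the log2 difference of each null array from the mean of the 3 null sham female arrays. Points are arrays, shaped by slide, and black lines are means of 3 arrays; the castrated male arrays sit between -0.13 and 0.21, and the sham male arrays sit between -0.82 and -0.25 on the left and between 0.74 and 0.81 on the right.

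The promoters of 3 genes are shown because the sections below turn on them: Susd3 is high with androgen, Tafa2 is high without it in null glands, and Akr1c18 marks the X-zone. The sequences are from RefSeq on GRCm38.p6 and run 5' to 3' from 250 bases before to 50 bases after the start of the gene, at chr13:49248245-49248544 on the minus strand, chr10:123263826-123264125 on the plus strand and chr13:4150597-4150896 on the minus strand. Capitals mark AAGGTCA, a site of the steroidogenic factor SF1, searched on both strands.
Susd3: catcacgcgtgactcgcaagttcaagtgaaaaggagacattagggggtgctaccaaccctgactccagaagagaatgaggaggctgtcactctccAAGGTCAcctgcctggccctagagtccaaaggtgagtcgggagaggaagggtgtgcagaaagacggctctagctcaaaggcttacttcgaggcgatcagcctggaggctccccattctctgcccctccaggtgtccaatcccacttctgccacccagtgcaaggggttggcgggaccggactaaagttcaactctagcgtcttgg
Tafa2: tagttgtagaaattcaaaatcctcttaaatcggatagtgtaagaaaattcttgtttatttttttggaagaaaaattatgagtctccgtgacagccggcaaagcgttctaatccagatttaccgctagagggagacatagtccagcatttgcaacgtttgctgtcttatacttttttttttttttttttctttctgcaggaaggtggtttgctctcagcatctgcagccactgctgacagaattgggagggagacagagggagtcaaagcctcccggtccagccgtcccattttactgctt
Akr1c18: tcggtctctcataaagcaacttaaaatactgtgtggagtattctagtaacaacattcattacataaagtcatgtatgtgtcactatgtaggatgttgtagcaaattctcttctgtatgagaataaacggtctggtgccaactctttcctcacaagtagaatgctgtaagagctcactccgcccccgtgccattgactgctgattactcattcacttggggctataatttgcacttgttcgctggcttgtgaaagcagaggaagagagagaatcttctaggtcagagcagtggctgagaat
One such site was found, in Susd3, and 4.66% of all 27025 promoters of this length hold one. TGTTCT, an androgen receptor half-site, was searched on both strands and was not found in these 3 windows. It was present in 19.0% of all promoters, in 13.6% of those of the autosomal genes tested, in 19.6% of 148 promoters of the male-high genes and in 14.0% of 221 promoters of the female-high genes. A match is a run of letters and was not tested as a bound site.

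Of the 198 male-high genes, 30 did not overlap between castrated null males and null females (15.2%), where 8.78% of all autosomal features did not. Of the 302 female-high genes, 78 did not overlap (25.8%). These shares too are not independent of the choice of the lists, since the spread used in that choice included the null arrays. Susd3, which encodes a sushi-domain membrane protein (probe at chr13:49326059-49326118 of mm9), read 2.08, 2.42 and 1.51 in sham null males. It read -4.74, -3.47 and -4.08 in castrated null males and -2.94, -3.39 and -2.42 in null females. Every castrated array lay below every female array. Susd3 fell by 6.10 after castration (SE 0.88, limma adjusted p = 0.00135), and the castrated male minus female difference was -1.18 (SE 0.88, 95% interval -3.03 to 0.67).

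Crym, which encodes the thyroid hormone binding protein mu-crystallin (chr7:127329970-127330029), read 1.42, 1.04 and 1.00 in sham null males. The castrated arrays read -2.98, -2.59 and -3.56 and the female arrays -1.67, -1.27 and -2.43. Again the castrated arrays all lay below the female ones, by 1.25 on average (SE 0.40, 95% interval -2.10 to -0.40), without passing the test. Within slides 1, 2 and 3 that difference was -1.31, -1.32 and -1.12.

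Hhex, Kcnj4, Acan, Kcnk1 and Shh overlapped between castrated males and females. Hhex, a homeobox transcription factor gene (chr19:37514969-37515028), read 4.46, 4.76 and 4.65 in sham males, 1.98, 2.27 and 2.26 in castrated males and 2.42, 2.42 and 2.14 in females. Its difference was -0.16 (SE 0.31, 95% interval -0.81 to 0.50), an interval that lies within -1 and 1. Kcnj4, the gene of the inward rectifier potassium channel Kir2.3 (chr15:79314133-79314157), read 0.85, 0.66 and 0.44 in sham males, -1.55, -2.36 and -2.67 in castrated males and -1.69, -2.05 and -2.24 in females. Acan, which encodes the proteoglycan aggrecan, differed by -0.16 (SE 0.60, 95% interval -1.43 to 1.11) after a fall of 2.78 with castration (SE 0.60, adjusted p = 0.0279). Kcnk1, the gene of the two-pore channel TWIK1, fell by 2.97 with castration (SE 0.37, adjusted p = 3.2e-04) and differed from females by -0.79 (SE 0.37, 95% interval -1.56 to -0.01). Shh, the hedgehog ligand of subcapsular cortical cells, fell by 1.44 (SE 0.29, adjusted p = 0.0174) and differed from females by -0.25 (SE 0.29, 95% interval -0.86 to 0.36). Cyp4f15, a cytochrome P450 gene, differed from females by -1.14 (SE 0.88, 95% interval -2.99 to 0.71), and its castrated arrays all lay below the female ones. Kcnf1, a modulatory potassium channel subunit gene, was not well above background in castrated males or in females. It was an estimated 4.80-fold higher in sham males than in castrated males (limma adjusted p = 4.64e-05).

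Tafa2, Serpinb1a, Wipf3 and Ankrd34b were high in castrated null males and in null females and low in sham null males. The genes of this and the next 3 paragraphs, and Hhex, Gulo and Tafa4 elsewhere, were named after their values were seen. Tafa2, which encodes a secreted chemokine-like protein (chr10:123177891-123177950), read -2.33, -2.23 and -2.87 in sham null males. It read 1.36, 1.03 and 2.41 in castrated males and 0.99, 0.12 and 1.74 in females. Castration raised it by 4.08 (SE 0.44, adjusted p = 7.4e-05), and the castrated and female arrays overlapped, with a difference of 0.65 (SE 0.44, 95% interval -0.28 to 1.58).

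Serpinb1a encodes an inhibitor of neutrophil serine proteases (chr13:32934693-32934752). It read 3.86, 4.34 and 2.64 in sham males, 7.76, 6.97 and 7.02 in castrated males and 7.51, 6.87 and 6.81 in females. The difference between castrated males and females was 0.19 (SE 0.49, 95% interval -0.83 to 1.21). Its paralogue Serpinb1c differed by 0.38 (SE 0.68, 95% interval -1.04 to 1.80) after a rise of 4.22 with castration (SE 0.68, adjusted p = 0.00276). The Serpinb1 genes are near copies of each other, and their probes may share signal.

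Wipf3, an actin regulator gene, read -1.19, -1.21 and -1.0 in sham males, 1.82, 1.23 and 1.78 in castrated males and 1.86, 1.19 and 0.76 in females. Ankrd34b, an ankyrin repeat gene, read -2.41, -2.73 and -2.12 in sham males, 0.16, 0.38 and 1.07 in castrated males and 0.68, 0.36 and -0.16 in females. For both genes the interval of the castrated male minus female difference lay within -1 and 1, from -0.22 to 0.90 and from -0.40 to 0.88.

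Npy1r, Bdnf, Ndnf and Ano4 were also called higher in castrated than in sham null males. Npy1r, a neuropeptide Y receptor gene, rose by 3.11 with castration (SE 0.46, adjusted p = 0.00153) and differed from females by 0.35 (SE 0.46, 95% interval -0.61 to 1.32). Bdnf, which encodes a neurotrophin, rose by 2.67 (SE 0.54, adjusted p = 0.0177) and differed by 0.54 (SE 0.54, 95% interval -0.59 to 1.68). Ndnf, the gene of a secreted neurotrophic factor, was not well above background in sham null males. It was an estimated 5.16-fold higher in castrated null males (limma adjusted p = 0.00239) and 6.74-fold higher in null females (adjusted p = 0.00116). Ano4, of the anoctamin family of calcium-activated membrane proteins, was likewise not well above background in sham males. It was an estimated 12.2-fold higher in castrated males (adjusted p = 0.00617) and higher in females (adjusted p = 0.0127). Between castrated males and females Ndnf and Ano4 differed by -0.39 (SE 0.37) and 0.18 (SE 0.64).

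Macc1 and Dkk3 had higher means in castrated males than in females. Macc1, which encodes a regulator of the Met receptor gene (chr12:120705295-120705354), read -1.31, -1.05 and -0.31 in castrated males and -2.93, -3.81 and -2.40 in females, and it was not well above background in sham males. The castrated and female arrays of Macc1 did not overlap. Its difference was 2.16 (SE 0.63, 95% interval 0.84 to 3.47), which did not pass. It did pass in the deposited value table and after normexp correction with quantile normalization, at 1.80 (SE 0.22) and 1.54 (SE 0.17). Dkk3, a member of the Dickkopf family of secreted proteins, read 5.02, 4.36 and 4.56 in castrated males, 4.50, 3.99 and 3.78 in females and 2.61, 2.41 and 2.84 in sham males. The castrated and female ranges of Dkk3 overlapped, and the difference was 0.55 (SE 0.25, 95% interval 0.03 to 1.08), against a rise of 2.02 with castration (SE 0.25, adjusted p = 3.2e-04).

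Earlier results of these same arrays had named 15 genes as raised in low-androgen null glands. Of these, 8 were called lower in sham males than in females, and after castration 12 were called higher and 1 lower. Over all autosomal features such calls made up 0.34%, 0.4% and 0.565%. None of the 15 was called between castrated males and females, and the median of that difference was 0.35. The differences ranged from -2.72 for Saa3 to 3.59 for Obp2a. Of the 15, 5 had an unadjusted p under 0.05 by limma, where 777 of all 29731 autosomal features had one. The interval lay within -1 and 1 for 3 of the 15. The list was chosen on these arrays and is no independent evidence.

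**Figure D2:**
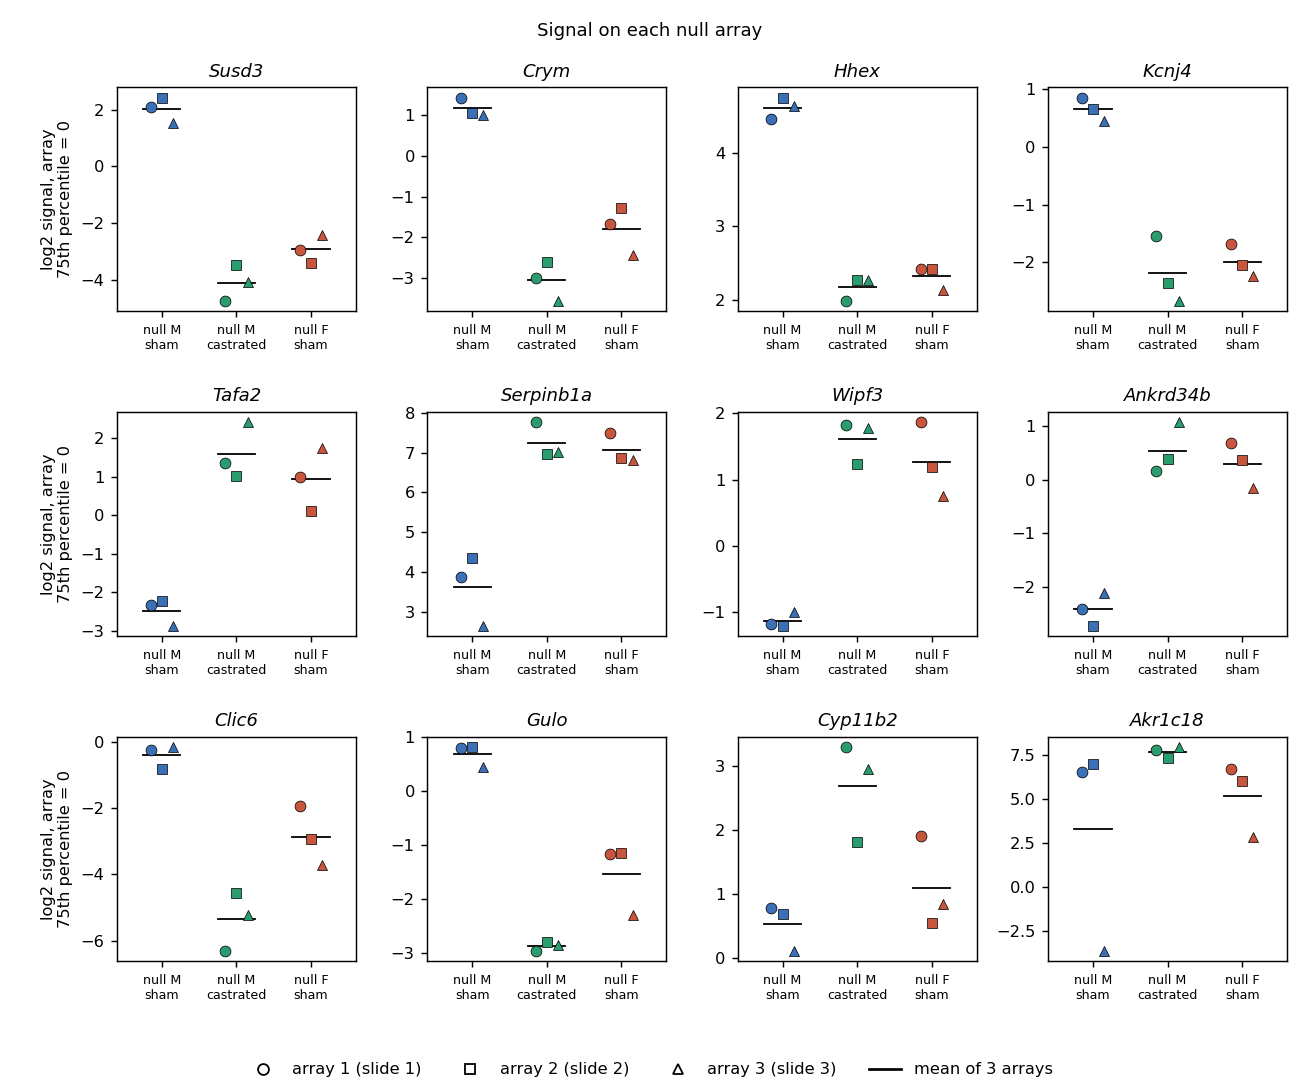
Log2 signal of 12 genes on each null array, with the 75th percentile of the array at 0; points are arrays, shaped by slide, and black lines are means of 3 arrays. Susd3, Crym, Hhex and Kcnj4 (top row) are high in sham males only, Tafa2, Serpinb1a, Wipf3 and Ankrd34b (middle row) are high in castrated males and in females, and in the bottom row Clic6 and Gulo are lower, and Cyp11b2 and Akr1c18 higher, in the castrated male mean than in the female mean.

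Clic6, Gulo, Vsnl1 and Agtr1b had lower means in castrated males than in females, and none passed. Clic6, of the chloride intracellular channel family (chr16:92541363-92541422), read -0.25, -0.83 and -0.17 in sham null males, -6.30, -4.55 and -5.22 in castrated males and -1.95, -2.93 and -3.71 in females. The groups did not overlap, and 2 of the 3 castrated arrays were well above background. The castrated male minus female difference was -2.49 (SE 0.43, 95% interval -3.40 to -1.58, adjusted p = 0.0935). Within slides 1, 2 and 3 it was -4.35, -1.62 and -1.51.

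Gulo, which encodes the last enzyme of vitamin C synthesis (chr14:66605830-66605889), read 0.79, 0.82 and 0.45 in sham males, -2.96, -2.79 and -2.86 in castrated males and -1.16, -1.15 and -2.29 in females, again without overlap. Its difference was -1.33 (SE 0.56, 95% interval -2.51 to -0.16). Vsnl1, the gene of a neuronal calcium sensor, differed by -1.43 (SE 0.52, 95% interval -2.53 to -0.33), with female array 3 at -3.19 lying among the castrated arrays at -3.18, -3.14 and -3.43. Agtr1b, a type 1 angiotensin II receptor gene, differed by -0.91 (SE 0.35, 95% interval -1.64 to -0.18). Wif1, a secreted Wnt inhibitor gene, was not well above background in castrated males. There it was an estimated 1.63-fold lower than in females and 10.1-fold lower than in sham males (limma adjusted p = 8.73e-05 for the latter). Tafa4, a relative of Tafa2, was not well above background in castrated males or in females. It was an estimated 8.36-fold higher in sham males than in castrated males (adjusted p = 3.97e-06). Over the 12 genes that earlier results of these arrays had named as lost in such glands, the median was -0.83. Of them, 10 were lower and 2 higher in castrated males. An unadjusted p under 0.05 by limma was found for 7, and for 777 of all 29731 autosomal features. In 4 of the 12 the groups did not overlap (33.3%, against 8.78% of all autosomal features). None passed, and the list was again chosen on these arrays.

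Akr1c18, the X-zone marker, read highest in castrated null males. Its probe (chr13:4131895-4131954) read 7.79, 7.32 and 7.94 in castrated males, 6.69, 6.02 and 2.85 in females and 6.51, 7.00 and -3.65 in sham males. The castrated arrays all lay above the others, and array 3 of both sham groups stood far below its group. Sham male arrays 1 and 2 had Xist at 19.5% and 18.3% of the female null mean, and array 3 at 6.08%. On the WT sham male arrays the median over 3 X-zone genes, relative to the female null mean, was -5.44, -5.48 and -4.51. The part of opposite-sex transcript in the Akr1c18 values of sham null males was not tested. For Akr1c18 the castrated male minus female difference was 2.50 (SE 1.75, 95% interval -1.17 to 6.17) and was not called. It was 1.10, 1.30 and 5.09 within slides 1, 2 and 3, so array 3 carried most of the mean. Pik3c2g, a phosphoinositide 3-kinase gene of the same zone, read 1.14, -0.06 and 1.18 in castrated males and -0.52, -1.51 and -3.85 in females, but a different probe of the gene gave -0.82 where this probe gave 2.71, so its direction is uncertain. Akr1d1, which encodes steroid 5-beta-reductase, differed by -0.20 (SE 1.20, 95% interval -2.73 to 2.32), and Thrb, a thyroid hormone receptor gene, by 0.20 (SE 0.27, 95% interval -0.38 to 0.78). Fa2h, a fatty acid hydroxylase gene that was among the 6 with the largest WT sex difference, read 1.10, -0.97 and 0.92 against -1.28, -1.65 and -4.80, a difference of 2.93 (SE 1.07, 95% interval 0.68 to 5.17).

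Cyp11b2, the gene of aldosterone synthase (chr15:74681530-74681855), read 3.29, 1.82 and 2.96 in castrated null males. It read 1.90, 0.55 and 0.84 in females and 0.78, 0.69 and 0.12 in sham males. Castrated array 2 lay just below female array 1, and the other castrated arrays lay above all female arrays. Castration raised Cyp11b2 by 2.16 (SE 0.49, adjusted p = 0.0351). The castrated male minus female difference was 1.59 (SE 0.49, 95% interval 0.57 to 2.61) and did not pass. Within slides 1, 2 and 3 it was 1.39, 1.27 and 2.12. Cyp11b2 and Cyp11b1 are close paralogues, and cross-hybridisation was not tested.

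Over 19 genes of steroid synthesis, Cyp11b2 among them, the median difference was 0.01, and the interval lay within -1 and 1 for 15. Cyp11b1, the gene of the last enzyme of corticosterone synthesis, read 7.87, 8.04 and 7.87 in castrated males and 8.06, 8.10 and 8.42 in females, with a difference of -0.27 (SE 0.16, 95% interval -0.60 to 0.07). Mc2r, the ACTH receptor gene, differed by -0.23 (SE 0.21, 95% interval -0.67 to 0.22), and its partner Mrap by 0.27 (SE 0.22, 95% interval -0.20 to 0.74). Medians over 17 zona glomerulosa genes, Cyp11b2 included, and 9 zona fasciculata genes were -0.03 and 0.04. Kcnk3 residual signal itself was lower in the castrated than in the female array on each slide, at 3.30, 3.06 and 2.84 against 4.49, 4.18 and 3.19, a difference of -0.88 (SE 0.32, 95% interval -1.56 to -0.21) that did not pass. Abhd1, the neighbour of Kcnk3 on chromosome 5, differed by 0.44 (SE 0.35, 95% interval -0.29 to 1.17). As a percent of the castrated null mean, Abhd1 read 72.8, 83.5 and 64.0 on the female null arrays and at most 8.32 on the WT sham arrays. On castrated WT arrays 1, 2 and 3 it read 6.53, 20.1 and 19.3, and the cause was not tested. Over 32 genes of membrane potential and calcium the median was 0.08. Kcnmb4, a subunit gene of the calcium-activated potassium channel, differed by 1.10 (SE 0.47, 95% interval 0.12 to 2.08).

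Since no gene passed, the 10 genes of each direction with the smallest p are named, none of which passed. The genes higher in castrated males were, in rank order, Ly6m, Obp2a, Ypel4, Cabp1, Cpa3, Inha, Pmepa1, Klre1, Procr and Hk2. Ly6m, a gene of the Ly6 family of surface proteins (chr15:74708940-74708999), read -1.29, 0.53 and -0.49 in castrated males and -3.34, -4.0 and -5.64 in females, a difference of 3.91 (SE 0.67, 95% interval 2.50 to 5.32, adjusted p = 0.0935). It passed in the deposited value table, after normexp correction and with array weights. Obp2a, an odorant binding protein gene (chr2:25557738-25557797), read -0.26, -2.67 and -0.68 against -3.49, -5.09 and -5.80, a difference of 3.59 (SE 0.74, 95% interval 2.04 to 5.13). Neither gene overlapped between the groups, and each was well above background on 2 of the 3 female arrays.

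Cabp1, a calcium binding protein gene, differed by 1.86 (SE 0.41), and it was also higher in sham null males than in females by 2.35 (SE 0.41, adjusted p = 0.00827). A different probe of Cabp1 gave 0.075 in the main comparison, so the size of its difference is uncertain. Inha, which encodes the inhibin alpha subunit, read 1.86, 1.55 and 2.32 in castrated males and 1.02, 0.27 and 0.99 in females, and castration raised it by 1.71 (SE 0.30, adjusted p = 0.00603). Hk2, the gene of a hexokinase, differed by 1.17 (SE 0.34), Procr, the endothelial protein C receptor gene, by 0.71 (SE 0.20), and Pmepa1, a membrane protein gene of TGF-beta signalling, by 0.60 (SE 0.16). Ypel4 and Klre1 were not well above background in females. They were an estimated 2.87-fold and 3.36-fold higher in castrated males, where Klre1 was above background on 1 of 3 arrays.

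Cpa3 belongs to the mast cell genes, of which 9 of 13 were measured. Cpa3, the mast cell carboxypeptidase gene, read -0.53, -1.21 and 0.11 in castrated males, -1.49, -1.63 and -2.69 in females and -2.67, -2.60 and -2.16 in sham males. Fcer1a, an IgE receptor subunit gene, read -2.60, -3.19 and -1.84 against -3.93, -3.58 and -5.08, and Mcpt4, a mast cell protease gene, -0.69, -0.96 and -0.26 against -1.56, -1.52 and -2.91. In each of the 3 genes all castrated arrays lay above all female arrays. Over the 9 genes the median was 1.17, 8 were higher in castrated males and 7 did not overlap between the groups, where 8.78% of all autosomal features did not overlap. None was called against females. With castration 4 were called higher, where 0.4% of all autosomal features were. Among them Cpa3 rose by 1.94 (SE 0.33, limma adjusted p = 0.00502) and Fcer1a by an estimated 26.5-fold (adjusted p = 8.73e-05). Tph1, the gene of the serotonin-synthesizing enzyme, rose by an estimated 8.29-fold (adjusted p = 0.00641). The summed linear signal of the 9 genes, relative to the 75th percentile, ranged from 4.99 to 6.48 in castrated males and from 3.68 to 4.64 in females.

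**Figure D3:**
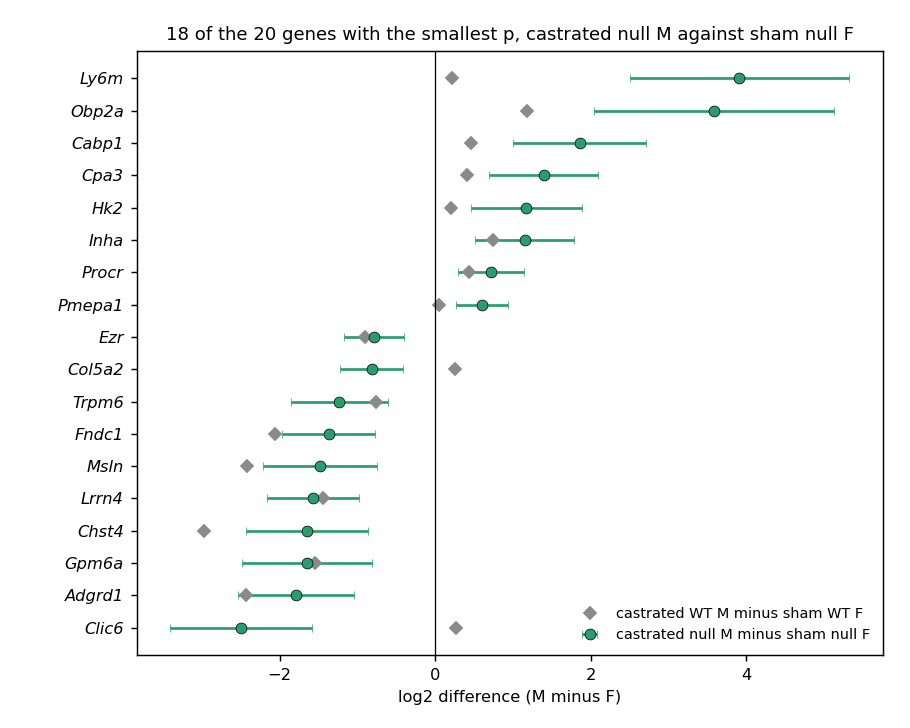
Difference between castrated null males and null females on the log2 scale, with 95% intervals from limma (circles), for 18 of the 20 genes with the smallest p, and the difference between castrated WT males and WT females (diamonds). None of the null differences passed after adjustment; the intervals of Ly6m and Clic6 reach from 2.50 to 5.32 and from -3.40 to -1.58, and Ypel4 and Klre1 are left out because no female null array was well above background.

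The genes lower in castrated males were, in rank order, Clic6, Lrrn4, Adgrd1, Fndc1, Chst4, Ezr, Col5a2, Msln, Gpm6a and Trpm6. Lrrn4, Msln, Ezr and Gpm6a are expressed in mesothelium, the cell layer that covers organs of the abdominal cavity. Msln, the mesothelin gene (chr17:25885569-25885628), read 0.51, 1.86 and 0.70 in castrated males, 2.74, 2.37 and 2.41 in females and 1.19, 1.85 and 0.90 in sham males. Lrrn4, a leucine-rich repeat gene (chr2:132694490-132694549), read -2.42, -1.24 and -2.31 in castrated males and -0.50, -0.69 and -0.07 in females, a difference of -1.57 (SE 0.28, 95% interval -2.16 to -0.98). In both genes castrated array 2 lay nearest the females.

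A list of 15 mesothelial genes was drawn up after these values were seen and gets no test. All 15 were lower in castrated null males than in null females, by a median of -1.67 and from -2.67 to -0.79, and in all 15 the groups did not overlap, where 8.78% of all autosomal features did not. Of the 15, 9 were called higher in WT sham females than in WT sham males, where 1.19% of all autosomal features were. Well above background were 13 of the 15 on all castrated arrays and 15 on all female arrays. The median over the list, relative to the female null mean, was -2.16, -0.69 and -2.05 on the castrated arrays, -1.52, -0.66 and -1.72 on the sham null male arrays, and 0.18, -0.13 and -0.07 on the female null arrays. Summed linear signal ranged from 8.36 to 24.2 in castrated males and from 36.6 to 37.6 in females. Krt19 and Krt7, keratin genes of the list, differed by -1.93 (SE 0.56) and -2.11 (SE 0.54), Upk3b, a uroplakin gene, by -1.68 (SE 0.52), and Muc16, a mucin gene, by -1.74 (SE 0.57). The castrated array nearest to the females was array 2, which had the most Xist, and the part of transcript from the opposite sex in this order was not tested. In WT glands, where the male arrays had at most 1.11% of the Xist level, castrated males were also below sham females, at a difference of -2.42 for Msln (SE 0.35, adjusted p = 0.00603), -3.37 for Krt19 (SE 0.56, adjusted p = 0.024) and -3.72 for Upk3b (SE 0.52, adjusted p = 0.00425).

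**Figure D4:**
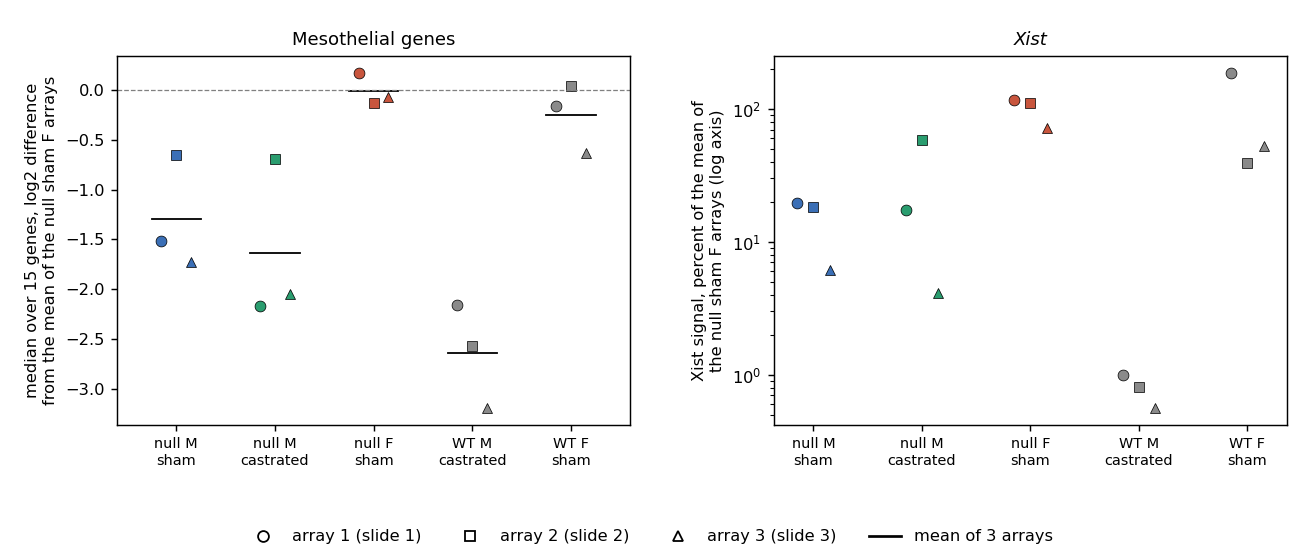
Median over 15 mesothelial genes as the log2 difference from the mean of the null sham female arrays (left) and Xist signal as a percent of that mean (right, log axis) on each array of 5 groups. Points are arrays, shaped by replicate number, and black lines on the left are means of 3 arrays. The number is also the slide, except that WT female array 3 lay on slide 4, not on slide 3 as the legend reads. Castrated null array 2, at -0.69 on the left, has the highest Xist of the null male arrays, at 58.0%.

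Other genes with lower values in castrated males included genes of connective tissue and innate immunity. Fndc1, a fibronectin-domain gene, read -0.69, 0.25 and -1.25 in castrated males, 1.12, 0.75 and 0.54 in females and -1.20, -0.75 and -0.85 in sham males, and the sham male difference of -1.74 passed (SE 0.29, adjusted p = 0.00539). Adgrd1, an adhesion receptor gene, differed by -1.79 (SE 0.36), Chst4, a sulfotransferase gene, by -1.64 (SE 0.37), Trpm6, a magnesium channel gene, by -1.23 (SE 0.30) and Col5a2, a fibrillar collagen gene, by -0.82 (SE 0.19). After normexp correction with quantile normalization these were -1.11, -0.86, -0.25 and -0.44 in the same order. Trpm6 had a low mean in castrated males, at -5.62. Over 21 extracellular matrix genes the median was -0.29, with 6 at an unadjusted p under 0.05 by limma, where 777 of all 29731 autosomal features were. Among the 6 were Fn1, the fibronectin gene, at -2.07 (SE 0.71) and Col3a1, a fibrillar collagen gene, at -0.91 (SE 0.24). Over 21 macrophage and innate immune genes the median was -0.37 and 17 were lower. Saa3, an acute phase gene, read 0.57, 2.93 and 0.36 in castrated males and 3.99, 4.05 and 4.00 in females, and Clec4e, a myeloid receptor gene, -2.56, -2.78 and -3.06 against -1.0, -1.63 and -2.17. In both genes the castrated arrays lay below all female arrays, and none of the 21 was called. Cxcl5, a neutrophil chemokine gene named after its values were seen, read -4.17, -2.96 and -5.60 in castrated males, -2.08, -1.72 and -2.07 in females and -4.19, -4.58 and -5.91 in sham males. The castrated arrays of Cxcl5 lay below all female arrays, and castrated arrays 1 and 3 lay at the level of the sham males.

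Several further lists shifted by small amounts, none with a called member in the main comparison. The 16 genes of the adrenal medulla were all higher in castrated males, by a median of 0.44. Their array medians overlapped, at 0.47, 0.24 and 0.59 in castrated males and 0.10, -0.42 and 0.32 in females. Th, the gene of the rate-limiting enzyme of catecholamine synthesis, read 6.00, 6.00 and 6.28 against 5.55, 4.90 and 5.67. The 15 adipocyte genes were also all higher, by a median of 0.39, with array medians of 0.29, 0.84 and 0.29 in castrated males and 0.11, 0.76 and -0.85 in females, so that female array 3 stood lowest. Ucp1, the thermogenic uncoupling protein gene, differed by 1.15 (SE 0.46). Of 29 genes of cholesterol synthesis and uptake, 26 were higher, by a median of 0.34, with Fdps at 0.73 (SE 0.28) and Lss at 0.63 (SE 0.28), both enzymes of sterol synthesis. Of 24 cell cycle genes, 22 were lower, by a median of -0.62, with Plk1, a mitotic kinase gene, at -0.85 (SE 0.33). Array medians of the cell cycle genes were -0.57, -0.52 and -0.62 in castrated males and 0.46, -0.47 and -0.09 in females. Female array 1 stood highest and female array 2 lay near the castrated arrays. In the sham null comparison the medians of these 4 lists were 0.71, 0.75, 0.47 and -0.90, and that comparison uses the same female arrays. Medians over endothelial, T and B cell, red blood cell and antigen presentation genes were 0.18, -0.03, -0.06 and -0.03.

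The same comparison in WT glands, castrated males minus sham females, called 22 features, all lower in males (0.074%), by limma. Of these, 18 had a symbol, of which 17 were in the female-high list, chosen with the same WT female arrays, and 9 in the mesothelial list. WT female arrays 2 and 3 carried Y-linked signal at 25.4% and 45.5% of the WT male level. The WT comparison called 44 with the replicate number as a block, 10 and 11 without WT female arrays 1 and 2, and 13 and 7 without WT castrated arrays 2 and 3. It called 22 without WT female array 3, the array of low RNA integrity, and 12 with RNA integrity as a covariate. Fitted by limma on only its own 6 arrays it called 0, with 1592 at an unadjusted p under 0.05. The test of the difference between genotypes called 0 of 29731 features, with 863 at an unadjusted p under 0.05, and it gave 2 calls with array weights. Whether castrated males come nearer to females in null than in WT glands was therefore not resolved gene by gene. Tafa2, which castration raised in null glands, was low in both WT groups, where it read -2.76, -2.53 and -2.51 in castrated WT males and -2.52, -2.95 and -4.07 in WT females. Susd3 read -1.72, 0.40 and -0.71 in castrated WT males and -2.92, -3.20 and -3.69 in WT females, the castrated arrays lying above the female ones, where in null glands they lay below.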

How the data were processed

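RNA of adrenal glands was measured on 24 one-colour Agilent arrays in 8 groups of 3. Per the file headers, the authors' deposited scanner files hold spot intensities, with a processed signal that Feature Extraction had background-subtracted, and probe positions are those of mm9. The deposited value table holds log2 values. Its scale was worked out from its correlation with log2 mean signal (0.998 to 1.00), its column medians were 6.33 to 6.34, and its centring was taken as quantile normalization because all column maxima are equal.

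From the processed signal, log2 was taken and the 75th percentile of each array (426 to 1099) was subtracted, over spots that were neither controls nor outliers. No spot was saturated. Probes well above background on at least 3 of 24 arrays were kept (36874 of 55681). Names came from RefSeq by accession (26387 probes) or symbol (4500), or from the file (2566); 140 probes had several and 22088 none. Each symbol was represented by its brightest probe and each unnamed probe by itself, 31143 features in all. Where no array of a group was well above background, values under the lowest signal well above background on their array were raised to that signal. A fold called estimated is the brighter group's mean against these values. It is not a strict lower bound, since a probe can fail to be well above background at a higher signal.

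Differences were tested with limma 3.58.1 (R 4.3.3; lmFit and eBayes over 8 group means and 24 arrays, 16 residual and 2.24 prior degrees of freedom) with Benjamini-Hochberg adjustment over all features, and calls were counted on autosomes. Figures were drawn with matplotlib 3.10.9, and tables were handled with Python 3.11.15 (pandas 2.3.3, numpy 2.4.6) and the R package data.table, version 1.17.8. The number of arrays limits the precision: on simulated data for the main comparison, with 200 of 30919 genes changed, 24 of 100 changes of 1 on the log2 scale and 74 of 100 changes of 2 were recovered, with 5 unchanged genes called. Replicate numbers coincide with slides in the null groups and pair the main comparison: deviations from the group means correlated at 0.25, 0.35 and 0.50 between arrays of the same number, and at 0.21, 0.17 and 0.37 for castration of null males. Arrays correlated at 0.931 to 0.991, so none was an identical copy of another. These values do not show whether the arrays came from separate animals.

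Named genes were 5 always named, the 10 of each direction with the smallest p where none was called, the 6 of each WT sex list with the largest WT difference, and up to 4 members of each gene list; some genes are not reported here by name. The members, lists and rule were chosen with earlier results of these data known. Alternatives covered normalization, filters, probes, blocks, RNA integrity, array weights and omitted arrays. A replicate block in a fit of the 6 arrays compared was added after the data were seen.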

Additional observations from a re-analysis of the deposited data

Results flagged for a closer look

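In 2 of the genes described, every castrated null male array lay on one side of the null female arrays and every castrated WT male array on the other side of the WT female arrays. WT female array 3, which is among these, had an RNA integrity number of 3 and lay on slide 4. Castrated WT arrays 2 and 3 carried Abhd1, high in null glands, at 20.1% and 19.3% of the castrated null mean, against 6.53% on array 1. For Susd3, castrated males minus females was -1.18 (SE 0.88) in null and 2.59 (SE 0.88) in WT glands, and the difference between genotypes was -3.77 (SE 1.25). For Crym, the thyroid hormone binding mu-crystallin gene, it was -1.25 (SE 0.40) in null and 1.38 (SE 0.40) in WT glands, and the difference between genotypes was -2.63 (SE 0.57). The limma test of the difference between genotypes was run over all features and called neither gene, with an adjusted p of 0.925 for Crym and 1.00 for Susd3.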

How the results depend on the processing

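The main comparison called 0 features as reported, and also 0 under quantile normalization, without a filter, with all probes, with a filter on all 3 arrays of a group, with RNA integrity as a covariate, on only the 6 arrays compared, and with the replicate number as a block in either fit. Pairing by replicate number with that block left the main count at 0, with 1223 features at an unadjusted p under 0.05 over all arrays and 2379 over the 6 arrays compared. It called 2 with normexp and quantile normalization, 2 in the deposited value table, 1 with slide as a block, 8 with array weights, 2 without castrated null arrays 1 and 2, and 4 without the 9 arrays whose sex-linked transcripts opposed the label. Leaving out each array in turn gave 0 to 10. The sham null sex comparison (209 calls) gave 374 and castrated WT males against sham WT females (22 calls) gave 44 with the replicate block, which moved no other count of calls by over 1.5 times. Arrays of the same number shared a slide in the sham null comparison too, and they correlated at 0.21, 0.03 and 0.23. The sham null comparison left this pairing out for its 209 calls. It gave 538 with slide as a block, 344 with RNA integrity, 2183 with array weights, 43 on only the arrays compared, 15 without the 9 arrays, and 51 to 148 leaving out 1 array. Castration of null males (287 calls) gave 512 with slide, 1570 with weights, 183 on only the arrays compared, 53 without castrated arrays 1 and 2, 12 without the 9 arrays, and 122 to 200 leaving out 1 array. The WT comparison gave 13 without a filter, 12 with RNA integrity, 162 with weights, 0 on only the arrays compared, 43 without the 9 arrays, and 7 to 22 leaving out 1 array. The difference between genotypes (0 calls) gave 2 with weights, 1 without castrated arrays 1 and 2, and 8 without the 9 arrays. Leaving out castrated null arrays 1 and 2 left castrated array 3 alone in its group. Leaving out the 9 arrays left only array 3 of the castrated and of the sham null males, and only array 1 of the WT sham females. Counts from these fits rest on single arrays of those groups. The causes were not tested. Medians over the female-high and male-high WT lists ranged from -0.12 to -0.02 and from -0.08 to 0.08. Of the genes named, 9 had a main difference that changed sign somewhere, each smaller than its SE as reported, so no direction is read from them. With array weights Ankrd34b was -0.052 and Ano4 -0.13, and in the deposited table Acan was 0.0013. Without castrated arrays 1 and 2, and likewise without the 9 arrays, Ano4 was -0.15, Serpinb1a -0.041 and Thrb -0.073. Leaving out 1 array gave -0.49 to 0.20 for Acan, -0.47 to 0.020 for Akr1d1, -0.023 to 0.44 for Ankrd34b, -0.37 to 0.65 for Ano4, -0.52 to 0.039 for Kcnj4, -0.082 to 0.80 for Npy1r, -0.066 to 0.41 for Serpinb1a and -0.096 to 0.84 for Serpinb1c.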

Other observations

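Further gene groups had 0 calls each by limma between castrated null males and null females, where 777 of all autosomal features had an unadjusted p under 0.05. Over 33 glutathione and antioxidant genes the median difference was -0.03, and for 30 of them the 95% interval lay within -1 and 1. Over 34 genes of Wnt signalling it was 0.00, with 26 intervals within those bounds, and over 31 genes of cyclic nucleotide signalling it was 0.09, with 24. Over 15 genes of hedgehog signalling, capsule and progenitor cells it was -0.05, with 11. The 10 renin-angiotensin genes had a median of 0.12, with 4 intervals within the bounds, the 19 clock genes 0.00, with 11, and the 17 immediate early genes 0.19, with 4. The 19 liver and kidney genes had a median of -0.29 and ranged from -1.74 to 0.85, with 1 interval within the bounds, and the 10 gonad genes had a median of -0.16, with 5. Over 37 genes near Kcnk3 on its chromosome the median was 0.08, with 28. A difference of more than 2-fold lay inside the interval for the other genes.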
